A study of Mus musculus with 12 samples.

Results

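The annexins and S100a10, the partner of annexin A2, were followed in whole mouse pancreas after caerulein or saline, with and without the transcription factor Mist1. The set was fixed by name as 9 genes: Anxa1, Anxa2, Anxa3, Anxa4, Anxa5, Anxa6, Anxa7, Anxa11 and S100a10. A probe set was taken where the platform annotation named 1 gene only, and that gene was on the list. This gave 16 probe sets of 8 genes, among 20240 probe sets and 12335 genes with a single symbol on the array. The probe set of Anxa11 carried several symbols, so that Anxa11 was not analysed here. Of the 16 probe sets, 15 passed the filter on dim signals, which lay at a signal of 35.45, and a second Anxa2 probe set, 1437691_at, did not. It is the dimmest of the 16, with signals of 1.1 to 15.2.

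The 12 arrays came from 4 groups of 3 pancreata, 1 array per pancreas, which the design text calls biological replicates. Wild type C57BL6 mice or mice labelled Mist1KO were given saline or caerulein every hour for 4 hours. All were males of 2 to 4 months, and about 10 µg of total RNA from each pancreas was labelled. The null allele and strain background of the Mist1KO mice, the caerulein dose and the time from the last injection to sacrifice are not stated in the sources used here. Bhlha15 is the gene of Mist1, a bHLH factor that maintains secretory cells such as the acinar cells that make digestive enzymes, and caerulein is a cholecystokinin analogue that acts on those cells. The samples were total tissue, in which fewer cells of a type and less RNA per cell cannot be told apart.

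Annexins are cytosolic proteins that bind acidic phospholipids of a membrane when calcium rises, through a conserved core of repeats, while a variable amino-terminal tail decides which partners they bring. Annexin A2 joins a dimer of S100A10 into a tetramer that can hold membranes together, tie them to actin and present plasminogen at the cell surface. In acinar cells the same rise in calcium that follows cholecystokinin receptor signalling drives the fusion of zymogen granules with the apical membrane, and annexins have long been studied at that step and in the patching of torn membranes.

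RefSeq promoter windows on GRCm38.p6 were at hand for 6 of the 9 genes, with 8 windows in all because Anxa4 and Anxa7 each had a second start. The 250 bases before the gene start are shown for the 3 genes that moved most clearly with caerulein and had a window: Anxa2, whose rise depended on genotype, and Anxa5 and Anxa7, which rose in both genotypes. Each is printed 5′ to 3′ on the gene's own strand, in lower case, with capitals for matches to the AP-1 site (TGANTCA) and to the TATA box (TATAAA), searched on both strands. The Anxa2 window is chr9:69453433-69453682 on the plus strand, just before the gene at 69453683 to 69491792. The Anxa5 window is chr3:36475888-36476137 on the minus strand, and the Anxa7 window, for the outer of its 2 starts, is chr14:20480134-20480383 on the minus strand.
Anxa2: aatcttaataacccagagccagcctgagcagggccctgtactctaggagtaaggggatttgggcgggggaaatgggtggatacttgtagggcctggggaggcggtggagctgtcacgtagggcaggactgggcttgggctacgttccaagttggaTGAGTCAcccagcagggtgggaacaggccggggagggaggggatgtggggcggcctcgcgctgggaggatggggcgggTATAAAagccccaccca
Anxa5: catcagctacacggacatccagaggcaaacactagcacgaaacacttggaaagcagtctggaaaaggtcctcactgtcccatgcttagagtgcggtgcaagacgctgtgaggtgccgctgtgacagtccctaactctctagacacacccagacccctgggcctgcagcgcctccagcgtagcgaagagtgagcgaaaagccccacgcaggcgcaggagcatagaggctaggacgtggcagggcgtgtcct
Anxa7: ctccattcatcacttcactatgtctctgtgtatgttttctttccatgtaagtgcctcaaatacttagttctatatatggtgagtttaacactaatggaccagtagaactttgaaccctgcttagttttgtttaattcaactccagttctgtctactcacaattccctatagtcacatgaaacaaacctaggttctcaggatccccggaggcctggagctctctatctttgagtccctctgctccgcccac

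In these windows the letters differed. The Anxa2 window held an AP-1 match that begins 95 bases before the gene start, a TATA box match that begins 17 bases before it, and GC box matches (GGGCGG) that begin 190, 48 and 24 bases before it. An AP-1 match was found in 1 of the 8 windows, that of Anxa2, against 6.75% of 32851 promoter windows of 250 bases over all genes. TATA box matches stood in 2 of the 8, in the windows of Anxa1 and Anxa2, against 12.4% of all windows. GC box matches stood in 4 of the 8, against 32.7%. The 2 Anxa7 windows overlap, and the only GC box match of the outer one is also 1 of the 4 in the inner one. The C/EBP-ATF composite core (TGATGNAA) and the CArG box matched in 0 of the 8, against 3.45% and 1.47% of all windows, and the TEAD core (GGAATG) matched in 1, that of Anxa1, against 12.6%. A match describes letters and no binding was measured.

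The values as deposited had trimmed means of 151.08 to 151.37 and medians of 70.6 to 90.15 over the 12 arrays. Scaling to a common mean before deposit is read from these trimmed means and is not stated in the sources used here. Bhlha15 was read at 729.5 to 1624.3 on the wild type arrays and at 38.3 to 106.8 on the Mist1KO arrays. The summed signal of 12 acinar cell markers was 190610 to 240530 in wild type after saline, 159270 to 219160 in wild type after caerulein, 140520 to 164100 in Mist1KO after saline and 81705 to 125320 in Mist1KO after caerulein. For 12 duct cell markers the sums were 3572.0 to 3980.6, 3543.3 to 3835.7, 2386.3 to 2882.5 and 4920.4 to 6403.5 in the same order. For 19 neutrophil and macrophage markers they were 2364.9 to 3180.4, 2045.4 to 2363.2, 1848.1 to 2852.7 and 2276.0 to 2542.6. The spiked hybridisation controls, 18 probe sets, averaged 1263 ± 61.8, 1074 ± 325, 914.2 ± 138 and 446.3 ± 58.0 (SD, n = 3 each), and the Mist1KO caerulein arrays were thus the lowest for both the controls and the acinar markers. Acinar and duct sums and the controls therefore moved with the group in which Anxa2 and S100a10 were highest, and their part in the results below was not tested.

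Changes below are log2 differences of group means with their SE (n = 3 per group) from a limma fit to all 15716 tested probe sets. They are on the log2(signal + 18.7) scale, which understates the change of dim probe sets. A probe set rose or fell where its p-value, adjusted over all tested probe sets by the Benjamini-Hochberg method, was under 0.05. The members were chosen with earlier results of these data known. The shares of all tested probe sets are therefore no unbiased base for the member counts, and no excess over them is read as a result. In wild type mice caerulein raised 5 of the 15 probe sets and lowered 0, where 9.19% of all tested probe sets rose and 9.74% fell. In Mist1KO mice it raised 6 and lowered 0, where 10.5% of all rose and 13.4% fell. At an unadjusted p under 0.05, the lower probe sets numbered 2 in wild type mice and 1 in Mist1KO mice. After saline 3 probe sets were higher and 4 lower in Mist1KO than in wild type, where 6.84% and 5.74% of all were. After caerulein 5 were higher and 4 lower, 9 of 15 in all, where 10.0% of all tested were higher and 10.2% lower, 20.2% together. The interaction, which asks whether caerulein acted differently in the 2 genotypes, was past the threshold for 2 of the 15, both with the larger response in Mist1KO, where 1.51% of all passed in that direction and 1.78% in the other, 3.30% together.

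The median change of the 15 was 0.24 with caerulein in wild type and 0.35 in Mist1KO, beside medians of -0.14 and -0.13 over all tested probe sets. It was -0.25 for Mist1KO against wild type after saline and 0.12 after caerulein, beside -0.05 for all in both. Centring each array on its median moved the caerulein medians of all probe sets to -0.01 in both genotypes, so part of any caerulein change is set by the scaling. That part was not small beside changes near 0. With centring, 1416137_at of Anxa7 went from -0.01 to 0.12 in wild type. In Mist1KO 1415818_at of Anxa6 went from -0.09 to 0.03, and neither change passed the test. All 3 arrays of a group lay beyond all 3 of the other for 7 of the 15 probe sets with caerulein in wild type (33.8% of all tested), 8 in Mist1KO (43.4%), 7 between genotypes after saline (33.1%) and 9 after caerulein (38.1%). Probe sets of the same gene are not independent. With each gene read by its brightest probe set alone, caerulein raised 4 of the 8 genes in wild type and 5 in Mist1KO, and the interaction was past the threshold for 1, Anxa2. The shares given above are over probe sets. No share over all genes read in this way was computed, so these gene counts have no base beside them. The comparisons share groups: the same 3 saline arrays serve as the base of a caerulein change and of a genotype difference.

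**Figure D1:**
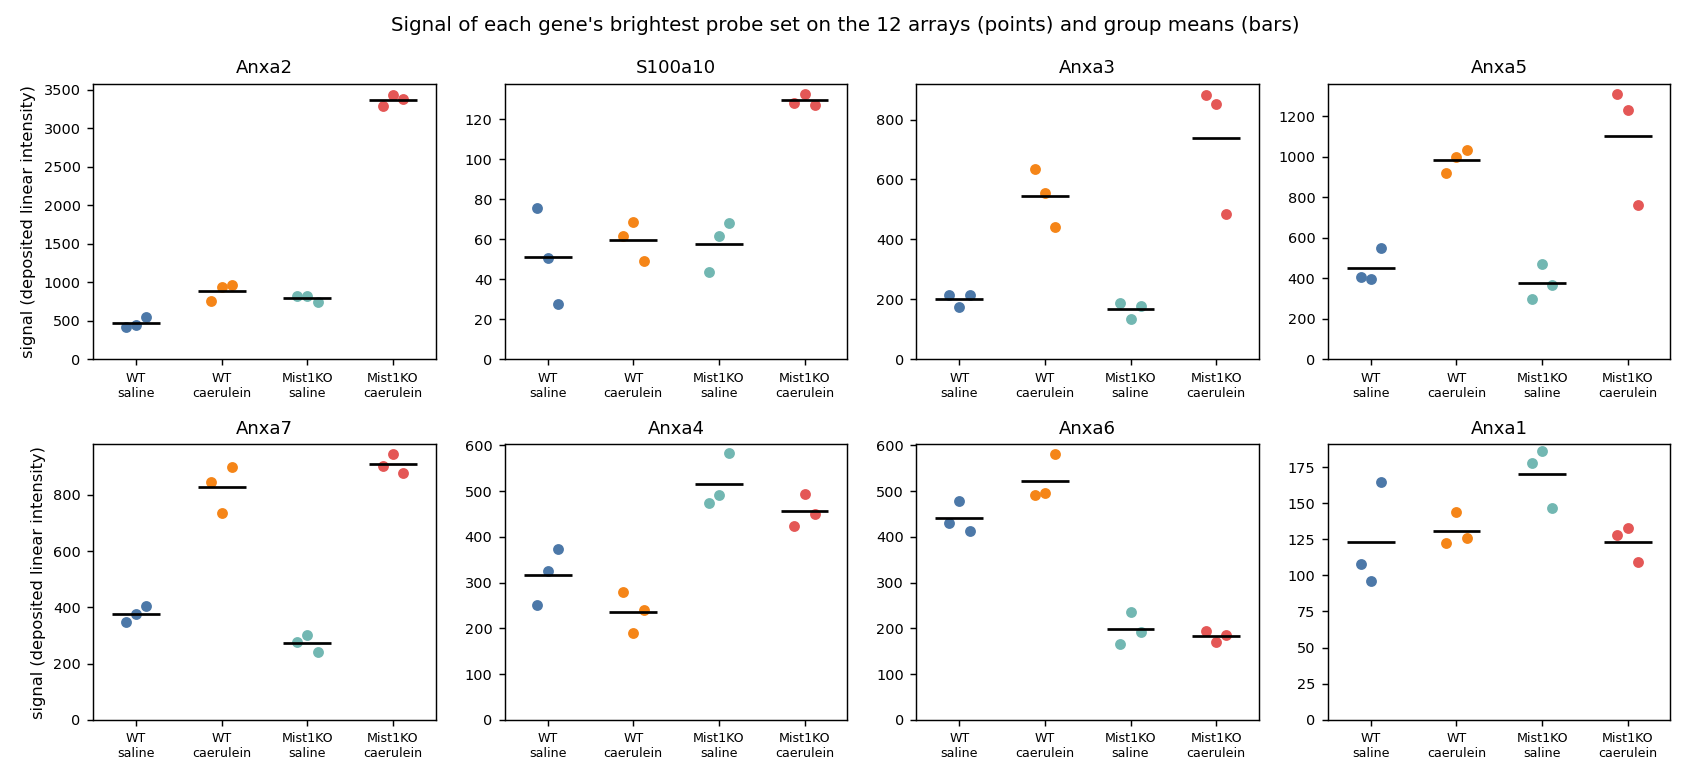
Signal (linear intensity as deposited, y axis from 0) of the brightest probe set of each of the 8 genes on the 12 arrays. Points are arrays, bars are group means of 3 arrays and WT is wild type; the 3 Mist1KO caerulein points of Anxa2 lie at 3285.3 to 3426.7, above every other Anxa2 point, while the 6 Mist1KO points of Anxa6 lie at 166.5 to 236.4, below all 6 wild type points.

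Anxa2 rose most in the Mist1KO pancreas, and both probe sets of S100a10 passed the test with caerulein in Mist1KO and not in wild type. Annexin A2 is the membrane-bridging, actin-linked annexin, and its brightest probe set, 1419091_a_at, read 419.8, 438.1 and 549.6 in wild type mice given saline and 759.8, 935.3 and 967.0 after caerulein. In Mist1KO it read 819.3, 817.1 and 739.9 after saline and 3285.3, 3426.7 and 3382.5 after caerulein. The Mist1KO saline arrays overlapped the wild type caerulein arrays, and the Mist1KO caerulein arrays lay far above all others and close to each other. Caerulein raised Anxa2 by 0.90 ± 0.13 (1.86-fold, adjusted p = 0.000215) in wild type and by 2.06 ± 0.13 (4.18-fold, adjusted p = 1.39e-07) in Mist1KO. The response was larger in Mist1KO by 1.17 ± 0.18, with a 95% confidence interval of 0.79 to 1.55 and adjusted p = 0.0039. Mist1KO exceeded wild type by 0.74 ± 0.13 (1.67-fold, adjusted p = 0.0022) after saline and by 1.91 ± 0.13 (3.75-fold, adjusted p = 4.47e-07) after caerulein. Each of these Anxa2 calls held under every alternative setting and with each array left out. The other tested Anxa2 probe set, 1437692_x_at, was dim at 9.1 to 104.3 and passed the test in no comparison, and nothing is read from it.

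S100a10 encodes the small S100 protein that binds the tail of annexin A2 and, unlike most S100 proteins, does not need calcium to do so. Its brightest probe set, 1456642_x_at, read 75.5, 50.6 and 27.4 in wild type after saline, 61.6, 68.7 and 49.0 after caerulein, 43.4, 61.4 and 68.2 in Mist1KO after saline and 128.4, 132.6 and 127.4 after caerulein. The first 3 groups overlapped and the Mist1KO caerulein arrays lay above them all. Caerulein changed it by 0.97 ± 0.26 in Mist1KO (1.96-fold, adjusted p = 0.0135) and by 0.22 ± 0.26 in wild type (adjusted p = 0.586), and the difference of the responses, 0.75 ± 0.36 (interval -0.03 to 1.53), did not pass the test (adjusted p = 0.32).

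The dimmer probe set 1416762_at of S100a10 read 107.0, 61.5 and 29.8, then 22.4, 24.9 and 40.9, then 21.0, 82.1 and 20.3, and in Mist1KO after caerulein 259.1, 168.4 and 150.1. Here too the Mist1KO caerulein arrays were the highest, and the other 3 groups overlapped. Caerulein raised it by 1.94 ± 0.40 in Mist1KO (3.83-fold, adjusted p = 0.00296), and the change in wild type was -0.73 ± 0.40 (adjusted p = 0.227). For this probe set the interaction passed the test at 2.67 ± 0.57 (interval 1.45 to 3.89, adjusted p = 0.0209). After caerulein Mist1KO exceeded wild type by 2.12 ± 0.40 (adjusted p = 0.00219) with 1416762_at and by 0.92 ± 0.26 (adjusted p = 0.0211) with 1456642_x_at. After saline neither probe set passed, at -0.55 ± 0.40 (adjusted p = 0.396) and 0.17 ± 0.26 (adjusted p = 0.695). Single arrays decided some of these calls. The interaction of 1416762_at had adjusted p = 0.0558 without Mist1KO saline replicate 1, 0.0605 without Mist1KO saline replicate 3 and 0.066 without Mist1KO caerulein replicate 1. The caerulein change of 1456642_x_at in Mist1KO had adjusted p = 0.0602 without Mist1KO saline replicate 1, and its genotype difference after caerulein had 0.0727, 0.0618 and 0.068 without wild type caerulein replicate 3 and Mist1KO caerulein replicates 1 and 2.

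**Figure D2:**
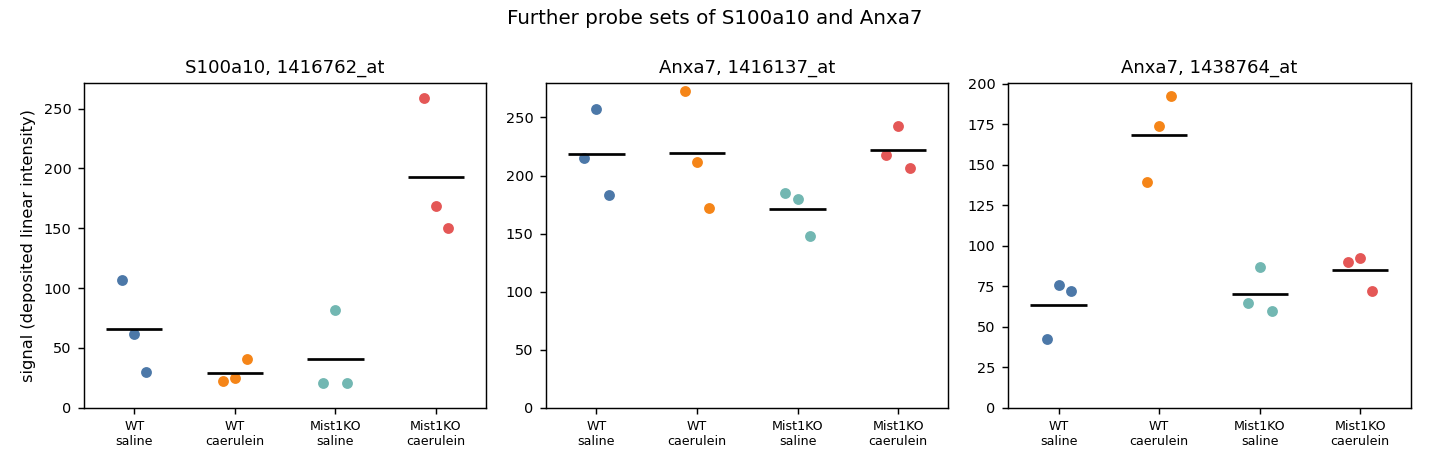
Signal (linear intensity as deposited, y axis from 0) of the dimmer S100a10 probe set and of 2 further Anxa7 probe sets, with points for the 12 arrays and bars for the means of 3. The S100a10 probe set is highest in Mist1KO after caerulein, at 150.1 to 259.1, while 1438764_at of Anxa7 is highest in wild type after caerulein, at 139.1 to 192.7.

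Anxa3, Anxa5 and Anxa7 rose with caerulein in both genotypes by their brightest probe sets, and for none of the 3 did the interaction pass the test. Annexin A3, known from neutrophil granules and from epithelia, read 215.5, 175.3 and 215.0 in wild type mice given saline and 635.7, 554.2 and 439.5 after caerulein. In Mist1KO it read 185.6, 134.3 and 178.1 after saline and 882.7, 850.7 and 485.7 after caerulein. Within each genotype the caerulein arrays lay above the saline arrays, and the caerulein arrays of the 2 genotypes overlapped. The rise was 1.34 ± 0.21 in wild type (2.53-fold, adjusted p = 0.000598) and 2.00 ± 0.21 in Mist1KO (4.01-fold, adjusted p = 1.41e-05), with a difference of 0.66 ± 0.30 (adjusted p = 0.287). Mist1KO differed from wild type by -0.26 ± 0.21 after saline (adjusted p = 0.45) and 0.40 ± 0.21 after caerulein (interval -0.06 to 0.86, adjusted p = 0.212). Without Mist1KO caerulein replicate 3, which was the lowest of its group for Anxa3 and for Anxa5, the last difference was 0.67 with adjusted p = 0.0222. The summed neutrophil and macrophage markers given above were not higher after caerulein in wild type. In Mist1KO their median was 1858.1 after saline and 2370.7 after caerulein, with overlapping ranges. Of 16 tested markers 0 rose in wild type (also 0 at an unadjusted p under 0.05) and 3 fell, where 9.19% of all tested probe sets rose and 9.74% fell. In Mist1KO 1 rose, Cd14, and 0 fell, where 10.5% of all rose and 13.4% fell. The interaction passed for 1 of the 16. At an unadjusted p under 0.05, 5 had the larger response in Mist1KO and 0 the smaller. The median interaction of the 16 was 0.43, beside -0.0002 for all tested. The part of such cells in the Anxa3 values was not tested.

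Annexin A5 binds phosphatidylserine, forms a lattice on membranes and is the usual label of dying cells. Its probe set read 404.0, 394.6 and 548.6 in wild type mice given saline and 918.8, 997.1 and 1032.7 after caerulein. In Mist1KO it read 297.0, 471.8 and 365.8, and 1310.7, 1230.7 and 760.2. Caerulein arrays lay above saline arrays in each genotype and the genotypes overlapped after either injection. The rise was 1.11 ± 0.21 in wild type (2.16-fold, adjusted p = 0.00182) and 1.48 ± 0.21 in Mist1KO (2.79-fold, adjusted p = 0.00014). The responses differed by 0.37 ± 0.29 (adjusted p = 0.589), and the genotype differences were -0.25 ± 0.21 after saline (adjusted p = 0.466) and 0.12 ± 0.21 after caerulein (adjusted p = 0.721).

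Annexin A7, once called synexin, brings granule membranes together in calcium. Its brightest probe set, 1416138_at, read 349.1, 375.2 and 406.4 in wild type mice given saline and 847.1, 737.5 and 899.3 after caerulein, and in Mist1KO 276.7, 303.4 and 240.9 after saline and 902.6, 944.7 and 877.9 after caerulein. The saline groups did not overlap, with Mist1KO the lower, and the caerulein groups did. Caerulein raised it by 1.10 ± 0.12 in wild type (2.14-fold, adjusted p = 2.97e-05) and by 1.67 ± 0.12 in Mist1KO (3.18-fold, adjusted p = 5.29e-07), with a difference of 0.57 ± 0.17 that did not pass the test (adjusted p = 0.0922). After saline it was lower in Mist1KO by -0.44 ± 0.12 (1.36-fold, adjusted p = 0.031), a call that was lost under 8 of 21 alternatives, among them centring on array medians (adjusted p = 0.0848) and leaving out wild type saline replicates 2 or 3 (0.0717 and 0.0804) or Mist1KO saline replicates 1 or 3 (0.0752 and 0.127). After caerulein the genotypes differed by 0.13 ± 0.12 (adjusted p = 0.474).

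The 3 probe sets of Anxa7 disagreed. Signals of 1416137_at were 215.5, 257.5 and 183.1, then 273.0, 211.8 and 172.4 in wild type, and 185.0, 180.2 and 147.5, then 217.3, 242.4 and 206.9 in Mist1KO, for saline and then caerulein. These ranges overlapped in wild type and no comparison passed, with caerulein changes of -0.01 in wild type and 0.35 in Mist1KO (adjusted p = 0.18); the first of these turned to 0.12 with arrays centred on their medians. Signals of 1438764_at were 42.3, 75.5 and 72.3 in wild type after saline, 139.1, 174.2 and 192.7 after caerulein, 64.7, 86.7 and 59.9 in Mist1KO after saline and 90.1, 92.5 and 72.2 after caerulein. That probe set rose in wild type by 1.21 ± 0.22 (adjusted p = 0.00154), while its change in Mist1KO was 0.22 ± 0.22 (adjusted p = 0.508). The wild type caerulein arrays stood above all others, and after caerulein Mist1KO was lower by -0.85 ± 0.22 (1.80-fold, adjusted p = 0.0142), with adjusted p = 0.0578 when wild type caerulein replicate 3 was left out. The interaction of 1438764_at, -0.98 ± 0.31, did not pass (adjusted p = 0.111). Which transcripts of Anxa7 each probe set reads was not analysed here, and the caerulein rise in wild type was thus seen with 2 of 3 probe sets and that in Mist1KO with 1 of 3.

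**Figure D3:**
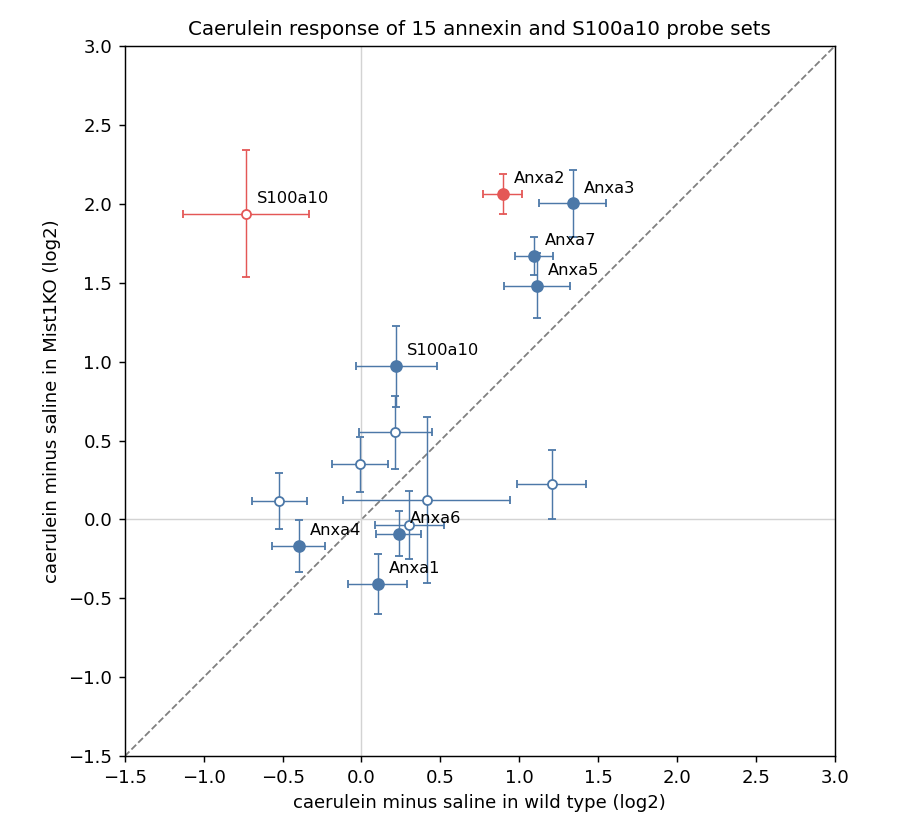
Caerulein minus saline (log2) of the 15 tested probe sets in wild type (x axis) and in Mist1KO (y axis), with SE bars, filled points for the brightest probe set of a gene and open points for the others. Red marks the probe sets past the threshold for the interaction, Anxa2 at 0.90 and 2.06 and the dimmer S100a10 probe set at -0.73 and 1.94; the dashed line marks equal responses.

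Anxa4 and Anxa6 differed by genotype, in opposite directions, and neither passed the test for caerulein in either genotype. Annexin A4 is an annexin of epithelia that gathers at the apical pole and on secretory membranes. Its brightest probe set, 1421223_a_at, read 251.1, 326.1 and 374.4 in wild type after saline, 279.0, 189.1 and 239.9 after caerulein, 473.7, 491.2 and 582.5 in Mist1KO after saline and 423.0, 493.9 and 449.8 after caerulein. All 6 Mist1KO arrays were above all 6 wild type arrays. Mist1KO exceeded wild type by 0.68 ± 0.17 after saline (1.60-fold, adjusted p = 0.0176) and by 0.91 ± 0.17 after caerulein (1.88-fold, adjusted p = 0.00172). The second probe set, 1424176_a_at, read 144.7, 167.7 and 170.2, then 89.3, 98.5 and 135.3 in wild type, and 297.1, 210.6 and 241.5, then 236.1, 270.6 and 307.8 in Mist1KO. Here too every Mist1KO array was above every wild type array, by 0.57 ± 0.18 after saline (adjusted p = 0.0486) and by 1.21 ± 0.18 after caerulein (2.31-fold, adjusted p = 0.000342).

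The saline differences of Anxa4 rested on few arrays. That of 1421223_a_at had adjusted p = 0.066 without wild type saline replicate 1 and 0.0768 without Mist1KO saline replicate 3, and that of 1424176_a_at was lost under 14 of 21 alternatives, with adjusted p as high as 0.182 without Mist1KO saline replicate 1. With caerulein Anxa4 changed by -0.40 ± 0.17 (adjusted p = 0.115) in wild type and by -0.17 ± 0.17 (adjusted p = 0.509) in Mist1KO with the brighter probe set. The wild type change passed without wild type saline replicate 1, at -0.55 with adjusted p = 0.0448. By 1424176_a_at it was -0.52 ± 0.18 (adjusted p = 0.054) and passed without wild type caerulein replicate 3 (adjusted p = 0.0259), with a stricter filter (0.0426) and with no offset (0.0489).

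Annexin A6, the annexin with a doubled core that binds cholesterol-rich membrane and restrains growth factor receptor signalling, was lower in Mist1KO with all 3 of its probe sets. The brightest, 1415818_at, read 430.7, 478.7 and 412.4 in wild type after saline, 490.7, 495.9 and 581.5 after caerulein, 166.5, 236.4 and 190.9 in Mist1KO after saline and 193.3, 170.5 and 186.3 after caerulein. The genotypes did not overlap after either injection. Mist1KO was lower by -1.09 ± 0.14 after saline (2.14-fold, adjusted p = 0.000331) and by -1.42 ± 0.14 after caerulein (2.68-fold, adjusted p = 1.57e-05). Caerulein changed it by 0.24 ± 0.14 (adjusted p = 0.266) in wild type and by -0.09 ± 0.14 (adjusted p = 0.699) in Mist1KO, and the latter was 0.03 with arrays centred on their medians.

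The probe set 1429246_a_at of Anxa6 read 159.7, 115.3 and 132.2, then 169.4, 174.5 and 136.6 in wild type, and 18.7, 45.2 and 33.6, then 53.2, 67.8 and 44.6 in Mist1KO. Again every Mist1KO array was below every wild type array, by -1.62 ± 0.23 after saline (adjusted p = 0.00066) and -1.28 ± 0.23 after caerulein (adjusted p = 0.00153). Its caerulein change of 0.55 in Mist1KO (adjusted p = 0.103) passed with arrays centred on their medians (0.0492) or quantile normalised (0.0459). The probe set 1429247_at read 98.8, 181.0 and 95.2, then 135.3, 173.8 and 151.1 in wild type, and 58.9, 66.7 and 71.4, then 60.9, 65.5 and 64.2 in Mist1KO. Mist1KO was lower by -1.06 ± 0.22 after caerulein (adjusted p = 0.00358) and by -0.72 ± 0.22 after saline (adjusted p = 0.0443). That saline call was lost under 13 of 21 alternatives, and without wild type saline replicate 2, the highest of its group, the difference was -0.46 with adjusted p = 0.158.

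**Figure D4:**
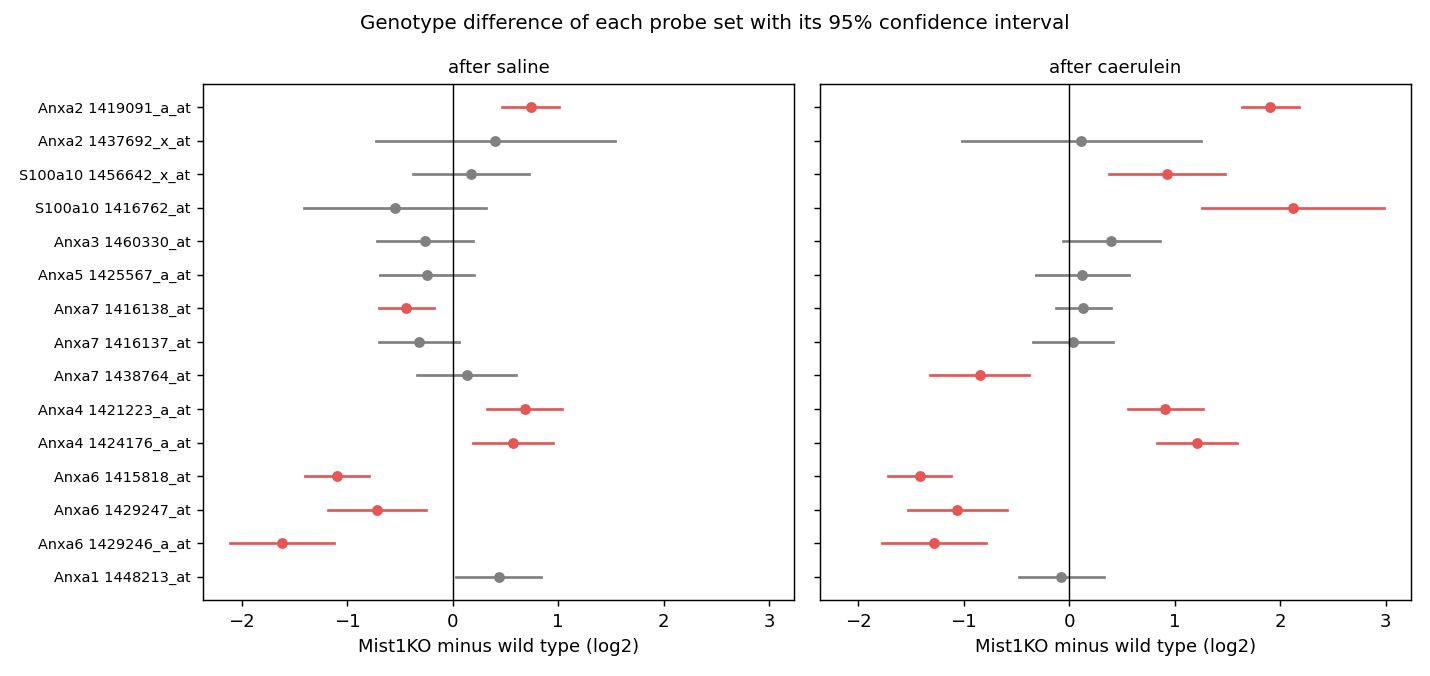
Mist1KO minus wild type (log2) with the 95% confidence interval for the 15 tested probe sets, after saline (left) and after caerulein (right). Red marks adjusted p under 0.05; the probe sets of Anxa6 lie left of 0 in both panels and those of Anxa4 right of 0, while the brightest Anxa2 probe set moves from 0.74 after saline to 1.91 after caerulein.

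Annexin A1 is the glucocorticoid-induced annexin whose tail acts on formyl peptide receptors to limit neutrophil entry. It read 108.1, 96.4 and 164.7 in wild type after saline, 122.5, 143.8 and 125.9 after caerulein, 177.7, 186.2 and 146.7 in Mist1KO after saline and 128.2, 132.7 and 109.1 after caerulein. The groups overlapped except for Mist1KO, where the saline arrays lay above the caerulein arrays, and Mist1KO saline against wild type caerulein. No comparison passed the test. Caerulein changed Anxa1 by 0.10 ± 0.19 in wild type (adjusted p = 0.738) and by -0.41 ± 0.19 in Mist1KO (interval -0.81 to -0.01, adjusted p = 0.137). Mist1KO differed from wild type by 0.44 ± 0.19 after saline (interval 0.04 to 0.84, adjusted p = 0.143), which became 0.64 with adjusted p = 0.035 when wild type saline replicate 3 was left out, and by -0.07 ± 0.19 after caerulein (adjusted p = 0.82).

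Genes listed as working with the annexins were counted, each gene read by its brightest probe set. The lists are broad. A place on one does not establish that a gene binds an annexin, and no binding was measured. The shares set beside these counts are over all tested probe sets, not over genes. The lists too were chosen with earlier results of these data known, so the shares are no unbiased base for the counts. With caerulein 9.19% rose and 9.74% fell in wild type, and 10.5% rose and 13.4% fell in Mist1KO. In Mist1KO against wild type 6.84% were higher and 5.74% lower after saline, and 10.0% and 10.2% after caerulein. The interaction passed for 3.30%. For annexin A2 and S100A10, 15 genes listed as surface and scaffold partners were tested. Caerulein raised 3 of them in wild type and lowered 0 (1 lower at an unadjusted p under 0.05). In Mist1KO it raised 6 and lowered 1. The median change was -0.01 in wild type and 0.16 in Mist1KO, beside -0.14 and -0.13 over all tested probe sets. Tnfrsf12a, the receptor of the cytokine TWEAK, rose in both genotypes, from a mean of 102.2 to 1477 in wild type (3.73 ± 0.34, adjusted p = 5.74e-06) and from 113.8 to 1570 in Mist1KO (3.53 ± 0.34, adjusted p = 6.15e-06). Ctsb, the lysosomal protease cathepsin B, also rose in both, by 0.80 ± 0.12 and 0.92 ± 0.12. The interaction was past the threshold for 4 of the listed genes, all with the larger response in Mist1KO.

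Those 4 were Ahnak, Tln1, Cd44 and Cdc42. Ahnak, the giant scaffold protein that the annexin A2 and S100A10 complex holds at the membrane, had means of 279.7 ± 36.1 and 278.7 ± 45.3 in wild type after saline and caerulein, and of 273.9 ± 46.7 and 889.8 ± 293 in Mist1KO (SD, n = 3). Its response was larger in Mist1KO by 1.60 ± 0.31 (adjusted p = 0.0151). Tln1, the talin that ties integrins to actin, had means of 191.9 and 136.5 in wild type and 126.8 and 294.6 in Mist1KO, and its response was larger by 1.54 ± 0.26 (adjusted p = 0.00622). Cd44, the hyaluronan receptor, rose by 0.78 ± 0.22 (adjusted p = 0.0206) in wild type and by 2.24 ± 0.22 (adjusted p = 5.89e-06) in Mist1KO, with a difference of 1.46 ± 0.30 (adjusted p = 0.0195). The wild type rise was lost without wild type caerulein replicate 2 or 3, or without replicate 2 of the saline group (adjusted p up to 0.0814). The difference was lost without Mist1KO saline replicate 3 or Mist1KO caerulein replicates 1 or 2 (adjusted p up to 0.0571). Cdc42, a small GTPase of actin and polarity, rose in Mist1KO by 0.83 ± 0.11 (adjusted p = 8.46e-05), and the difference of 0.69 ± 0.15 (adjusted p = 0.0261) was lost under 11 of 20 alternatives. The count of 4 fell to 2 without Mist1KO saline replicate 3, Mist1KO caerulein replicate 1 or Mist1KO caerulein replicate 2. Rab3d, the small GTPase of zymogen granules, went the other way between genotypes. It was lower in Mist1KO by -1.88 ± 0.12 after saline and -2.48 ± 0.12 after caerulein. It was also the listed gene that fell with caerulein in Mist1KO (-0.47 ± 0.12, adjusted p = 0.00927).

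**Figure D5:**
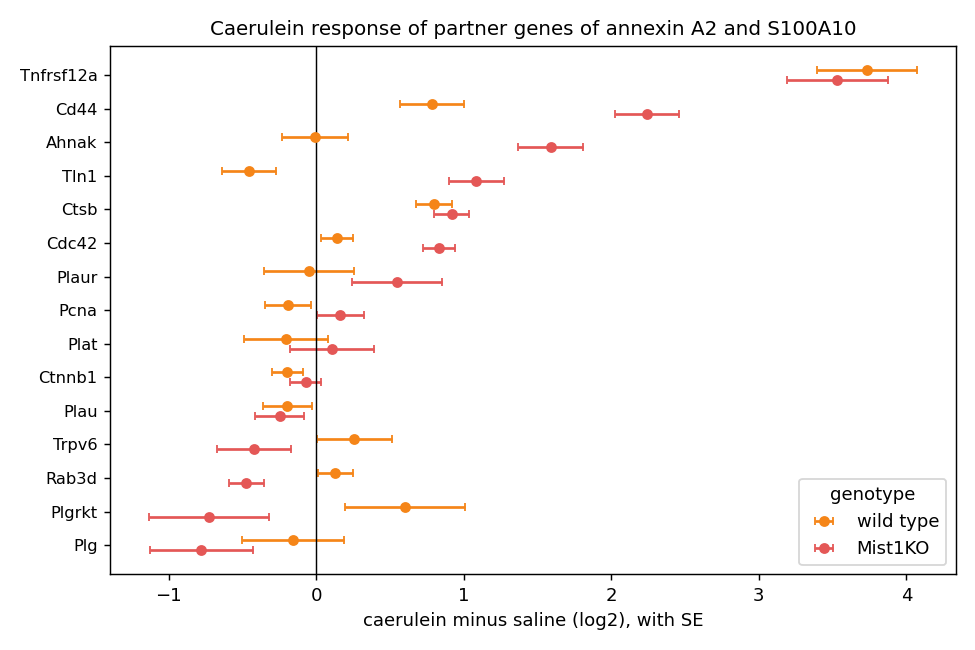
Caerulein minus saline (log2, points with SE bars) in wild type and in Mist1KO for the 15 tested genes listed as partners of annexin A2 and S100A10, ordered by the change in Mist1KO. Tnfrsf12a stands at 3.73 and 3.53, while Ahnak stands at -0.01 in wild type and 1.59 in Mist1KO.

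Among 22 tested genes of plasma membrane repair and ESCRT, 5 rose and 0 fell with caerulein in wild type (2 lower at an unadjusted p under 0.05), and 7 rose and 1 fell in Mist1KO. The interaction was past the threshold for 0 by limma, with 1 at an unadjusted p under 0.05. Their median change was 0.15 in wild type and 0.14 in Mist1KO, beside -0.14 and -0.13 for all tested. Pdcd6 (ALG-2), a calcium sensor that binds the tails of annexins A7 and A11, rose by 1.49 ± 0.17 (adjusted p = 3.97e-05) in wild type and by 1.43 ± 0.17 (adjusted p = 3.53e-05) in Mist1KO. Its partner Pdcd6ip (ALIX) rose by 1.02 ± 0.18 and 1.06 ± 0.18. Capn2, the catalytic subunit of m-calpain, had means of 167.3 and 346.8 in wild type mice given saline and caerulein and of 143.2 and 522.1 in Mist1KO, rises of 0.98 ± 0.16 and 1.73 ± 0.16. Ehd4, of endosome tubules, rose by 1.30 ± 0.23 and 1.78 ± 0.23, and Cav1, caveolin-1, was the member that fell in Mist1KO, by -0.82 ± 0.19 (adjusted p = 0.00677). Between genotypes 3 of the 22 were higher in Mist1KO after saline, and after caerulein 7 were higher and 1 lower. The saline count of 3 was 1 without Mist1KO saline replicate 1, without Mist1KO saline replicate 3 or with no intensity trend, and 5 with arrays centred on their medians. The caerulein count of 8 was 3 without Mist1KO caerulein replicate 1, 4 without Mist1KO caerulein replicate 2 or wild type caerulein replicate 3, and 5 without wild type caerulein replicate 2 or with only the groups compared in the fit.

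For annexins A4, A6, A7 and A11, 10 genes listed as binding partners were tested. With caerulein 3 rose and 0 fell in wild type (1 lower at an unadjusted p under 0.05), and 3 rose and 3 fell in Mist1KO. The latter count of 6 fell to 3 without Mist1KO caerulein replicate 1. The median changes were 0.05 and 0.37. Pdcd6 is also on this list. Lgals3, galectin-3, rose from a mean of 50.6 ± 23.2 to 733 ± 364 in Mist1KO (SD, n = 3; 3.35 ± 0.42, adjusted p = 6.29e-05), and its rise in wild type, 1.43 ± 0.42 (adjusted p = 0.0300), was lost under 3 of 21 alternatives, with adjusted p as high as 0.136. The Golgi glycosyltransferase Galnt3 rose by 0.89 ± 0.15 and 1.12 ± 0.15. The 3 that fell in Mist1KO were Sec31a (-0.66 ± 0.17), a coat protein of vesicles leaving the endoplasmic reticulum, Lamp1 (-0.48 ± 0.12), of the lysosome membrane, and Sar1a (-0.47 ± 0.14), the GTPase that starts that coat. The fall of Sec31a was lost without Mist1KO saline replicate 3 or Mist1KO caerulein replicate 1 (adjusted p up to 0.0641).

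Of 7 tested annexin A1 effectors and formyl peptide receptors, 0 rose and 1 fell with caerulein in each genotype, and none rose at an unadjusted p under 0.05 either. The median changes were -0.31 and -0.21. This was Trpm7, a channel with a kinase domain, at -0.92 ± 0.17 (adjusted p = 0.00171) in wild type and at -0.54 ± 0.17 in Mist1KO (adjusted p = 0.0305, lost under 8 of 21 alternatives). Egfr, the receptor whose kinase acts on annexin A1, was lower in Mist1KO by -0.91 ± 0.14 after saline (means 1495 ± 203 in wild type and 787.9 ± 128; SD, n = 3; adjusted p = 0.000962) and by -0.69 ± 0.14 after caerulein (adjusted p = 0.00307).

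Other S100 genes were mostly not past the threshold. Of 10 tested, 0 rose and 1 fell with caerulein in wild type, and 1 rose and 0 fell in Mist1KO, with median changes of -0.20 and -0.08. At an unadjusted p under 0.05 the counts were 0 higher and 3 lower in wild type, and 1 higher and 2 lower in Mist1KO. The one that rose, S100a16, had means of 997.1 ± 62.0 and 1066 ± 10.7 in wild type after saline and caerulein and of 530.1 ± 140 and 1004 ± 93.4 in Mist1KO (SD, n = 3). It was thus lower in Mist1KO after saline by -0.92 ± 0.15 (adjusted p = 0.00175), rose with caerulein by 0.92 ± 0.15 (adjusted p = 0.000456), and did not pass between genotypes after caerulein (-0.09 ± 0.15, adjusted p = 0.725). The one that fell, S100pbp, encodes a protein that binds an S100 protein and is not itself an S100 protein, and its call was lost under 5 of 20 alternatives (adjusted p up to 0.116), so that the count of 1 fell to 0 there. Of the annexin genes outside the set, Anxa8 and Anxa13 passed the filter. Anxa13, an annexin of intestinal and kidney epithelium, fell with caerulein in wild type by -0.79 ± 0.23 (adjusted p = 0.0300), from a mean of 104.3 ± 18.2 to 52.7 ± 10.6. That call was lost under 9 of 20 alternatives, with adjusted p as high as 0.109, 4 of them single wild type arrays left out (saline replicates 2 and 3, caerulein replicates 2 and 3).

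Markers of other cells were counted over the genes of each list that were on the array and passed the filter, such as 10 of 14 listed duct cell markers. Of 10 tested duct cell markers 2 rose and 1 fell with caerulein in wild type, and 4 rose and 0 fell in Mist1KO, with an interaction past the threshold for 2, Krt19 and Slc4a4. Krt19, keratin 19, had means of 77.8 and 335 in wild type and 56.3 and 852.6 in Mist1KO, and its response was larger in Mist1KO by 1.62 ± 0.30 (adjusted p = 0.0114). The interaction of Slc4a4, a bicarbonate transporter, was lost under 14 of 19 alternatives, 10 of them single arrays left out, with adjusted p as high as 0.118, and that of Krt19 under 0 of 20. Of 12 tested acinar markers 2 fell with caerulein in wild type and 10 in Mist1KO. The 2 in wild type were Nr5a2, lost under 0 of 21 alternatives, and Rbpjl, lost under 9. Of the 4 largest falls in Mist1KO, those of Rbpjl (-1.24) and Cpb1 (-0.71) were lost under 0 of 21. That of Cpa1 (-0.67) was lost under 7 of 21 and that of Cel (-0.68) under 2. Under some alternatives the falls were as small as -0.15 for Cpa1, -0.11 for Cel and -0.21 for Cpb1. In wild type and Mist1KO in turn, 1 and 3 of 12 fibroblast and stellate cell markers fell. So did 1 and 1 of 9 endothelial markers and 0 and 1 of 7 islet markers. Of 7 lymphocyte and plasma cell markers 2 fell in wild type and 1 rose in Mist1KO. Over all tested probe sets 9.19% rose and 9.74% fell with caerulein in wild type, and 10.5% rose and 13.4% fell in Mist1KO. With counts this small beside such shares, nothing is read from them about these 4 cell types. In Mist1KO after caerulein, where Anxa2 was highest, the duct sums were the highest and the acinar sums the lowest. In the other groups the duct sums and Anxa2 differed in order. After saline the sums were lower in Mist1KO than in wild type, while Anxa2 was higher in Mist1KO. In wild type the sums overlapped between saline and caerulein, while Anxa2 rose. Epcam, 1 of the duct markers, rose with caerulein in wild type (1.84). Epcam was also higher in Mist1KO after saline (1.28) and after caerulein (1.63). After saline 3 of the 10 duct markers were lower in Mist1KO and Epcam alone was higher. The part of either list in the Anxa2 and S100a10 results was not tested.

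The genes whose course over the 12 arrays was nearest to that of a member were sought among 9480 named genes, by the root mean square difference of log2 values, each gene centred on its own mean. Nearest to Anxa2 were Nfatc1 (0.271), Phldb2 (0.293), Hmgcs1 (0.295), Rab11fip5 (0.307) and Cldn7 (0.312). Nfatc1, a calcineurin-regulated transcription factor, had group means of 225 and 314.9 in wild type after saline and caerulein and of 260.7 and 1304 in Mist1KO. Cldn7, a tight junction claudin, had means of 239.1, 682.2, 615.0 and 1993 in the same order. Nearest to S100a10 were Cyth2 (0.218), Alcam (0.220), Rab27b (0.241), Dis3 (0.244) and Ippk (0.250). For Anxa3 the nearest was Cast (0.240), which encodes calpastatin, the inhibitor of calpains. For Anxa5 it was Antxr2 (0.193), followed by the small heat shock gene Hspb1 (0.197) and the syntaxin Stx3 (0.199). For Anxa7 it was Ywhah (0.119), with Stx3 (0.156) next. For Anxa6 it was Asl (0.171), and for Anxa4 it was Ppil2 (0.162). The difference is small for any gene that varies little, and all values share the same 12 arrays and their scaling.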

How the data were processed

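Total RNA of 12 pancreata in 4 groups of 3 was measured on Affymetrix mouse arrays. The authors deposited 1 linear signal intensity for each probe set on each array. The summarising software, any scaling target and detection calls are not stated in the sources used here. Groups were taken from the sample titles. Before log2, 18.7 was added to every value, which is their 20th percentile. The 64 control probe sets and those with a mean log2 value at or below the 30th percentile were left out, which left 15716 of 22516. limma 3.58.1 in R 4.3.3 fitted a mean per group (lmFit, eBayes with an intensity trend, 8 residual degrees of freedom), with two-sided moderated tests and Benjamini-Hochberg adjustment over all tested probe sets at 0.05. The code was tested on simulated data. A gene was described by its brightest probe set, with the others where they disagreed. Up to 4 genes of a list were named per comparison, the largest changes past the threshold, and at most 5 nearest genes. The members and lists were chosen with earlier results of these data known. The alternatives changed the offset, the filter, the scaling between arrays, the prior, the arrays in the fit, the replicate number as a block, and left out each array in turn; they were extended to the listed genes after the data were seen. Gene names came from the platform annotation, in which 682 probe sets had several symbols and 1530 had none. Promoters were searched with Python 3.11.15, and figures were drawn with matplotlib 3.10.9.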

Additional observations from a re-analysis of the deposited data

Results flagged for a closer look

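For 2 probe sets the caerulein response differed between the genotypes by the test of the difference itself, the interaction in the limma fit. The response of Anxa2 (1419091_a_at) was larger in Mist1KO by 1.17 ± 0.18 (log2, SE, n = 3 per group, adjusted p = 0.0039), with all 3 Mist1KO caerulein arrays above the 9 others. That of the dimmer S100a10 probe set (1416762_at) was larger by 2.67 ± 0.57 (adjusted p = 0.0209), again with the 3 Mist1KO caerulein arrays above the others, and its brighter probe set, 1456642_x_at, differed in the same direction by 0.75 ± 0.36 without passing (adjusted p = 0.32).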

How the results depend on the processing

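Of 29 member changes past the threshold, 21 stayed past it under every alternative run and 0 reversed. Of 46 not past it, 5 passed under some alternative, and 13 changes, none of which had passed, reversed under some alternative. Fitting only the groups compared left 4 probe sets past the threshold for genotype after saline in place of 7, and the filter at the 50th percentile, which left the S100a10 probe set out, left 1 for the interaction in place of 2. With single arrays left out these counts ran from 3 to 7 and from 1 to 2. With arrays centred on their medians, changes that had not passed turned sign for 1416137_at of Anxa7 with caerulein in wild type (0.12), 1415818_at and 1429247_at of Anxa6 with caerulein in Mist1KO (0.033 and 0.088), and Anxa1 between genotypes after caerulein (0.010). Quantile normalisation turned 1416137_at (0.057) and 1429247_at (0.088). With single arrays left out, uncalled changes ran, for caerulein in wild type, from -0.17 to 0.14 for Anxa7 1416137_at, from -0.032 to 0.30 for Anxa1 and from -0.050 to 0.47 for S100a10 1456642_x_at. For caerulein in Mist1KO they ran from -0.20 to 0.035 for Anxa6 1415818_at, from -0.094 to 0.014 for 1429247_at and from -0.37 to 0.69 for Anxa2 1437692_x_at. For genotype after saline they ran from -0.067 to 0.25 for Anxa7 1438764_at and from -0.10 to 0.42 for S100a10 1456642_x_at. For genotype after caerulein they ran from -0.11 to 0.20 for Anxa7 1416137_at, from -0.020 to 0.37 for Anxa5 and from -0.37 to 0.69 for Anxa2 1437692_x_at, whose interaction ran from -0.78 to 0.28. The cause of these turns was not tested. Same-numbered arrays did not deviate together over all tested probe sets (correlations of -0.104 to 0.0452 in 18 pairs, 2 of 12 arrays nearest to their own number). A pairing that acts on few probe sets could not be seen in this way. With the replicate number as a block, 5, 6, 5, 9 and 2 member probe sets passed in place of 5, 6, 7, 9 and 2. Over the whole table the count for genotype after saline, 1977, was 1158 without wild type saline replicate 2, 1078 without Mist1KO saline replicate 1 and 1068 without Mist1KO saline replicate 3. The count for the interaction, 518, was 328 with no intensity trend, 344 without wild type caerulein replicate 2, 309 and 274 without Mist1KO saline replicates 1 and 3, and 271 and 300 without Mist1KO caerulein replicates 1 and 2. Dim probe sets limit S100a10 and the second Anxa2 probe set, since no detection call or background was given for them.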

Other observations

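Anxa10, the annexin of gastric epithelium, is not one of the 9 genes and lay below the filter, and it was singled out after its values were seen. Its probe set 1449426_a_at read 4.2, 10 and 2.5 in wild type after saline, 38.9, 3.3 and 2.1 after caerulein, 1.4, 31.2 and 16.6 in Mist1KO after saline and 209.3, 170.8 and 60.5 after caerulein. The Mist1KO caerulein arrays were the 3 highest of the 12. In the limma fit without a filter, caerulein raised it in Mist1KO by 2.20 ± 0.47 (adjusted p = 0.00597), and Mist1KO exceeded wild type after caerulein by 2.34 ± 0.47 (adjusted p = 0.00531). The interaction, 1.89 ± 0.67, did not pass (adjusted p = 0.21). The other Anxa10 probe set, 1430443_at, read 42.2, 33.2 and 1.4 in Mist1KO after caerulein and passed in no comparison.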
